A study of Homo sapiens with 10 samples.

Results

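The genes described here encode the proteins of the cytosolic ribosome, in parental RPE p53-/- cells and in cells of that line labelled as CCAR1 knockout. They were chosen by symbol: RPL or RPS followed by a number and an optional A, X, L, AL or L1, together with RPLP0 to RPLP2 and RPSA. The rule found 85 of the 62700 genes in the table. Of these, 77 are the canonical genes (31 of the small and 46 of the large subunit). The other 8 are paralogs, which are described apart: RPL7L1, RPL22L1, RPL26L1, RPL36AL and RPS27L are broadly expressed, and RPL3L, RPL10L and RPL39L are known from muscle or the male germ line.

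RPE cells are a human epithelial line from the pigmented layer of the retina. One group was RPE p53-/- parental cells (5 samples), and the other was RPE p53-/- cells in which CCAR1 had been knocked out (5 samples), so both groups lack p53. The title of the series links CCAR1 to splicing and to the Fanconi anemia/BRCA pathway of DNA repair, and the experiment asked which genes its loss changes. Polyadenylated RNA was sequenced from cells grown in the same medium. Whether a replicate is a culture of its own, and whether the knockout line is 1 clone, is not stated in the labels. The p-values therefore rest on a spread between samples that may be technical, and any difference between these 2 cell populations can enter a fold change. In bulk RNA, fewer cells of a type and less RNA per cell cannot be told apart.

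A ribosome is built in the nucleolus from ribosomal RNAs and one copy of nearly every ribosomal protein, so dividing cells keep the transcripts of these genes at high and matched levels. Most of the genes begin transcription at a C followed by a run of pyrimidines, the terminal oligopyrimidine (TOP) motif, through which mTOR signalling and LARP1 control translation of the messenger RNA. RPL5 and RPL11 also form a particle with 5S rRNA that binds MDM2, the ubiquitin ligase of p53. In the parental cells studied here p53 is already absent.

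The TOP motif was visible at the start sites of most canonical genes. The windows below run 5′ to 3′ from 10 bases before to 20 bases from the annotated start (RefSeq, GRCh38.p14) and are shown because these genes carry the results that follow. Capitals mark the longest run of a C and at least 4 pyrimidines after it that begins within 5 bases of the start. Where pyrimidines also lie directly before that C, as in RPL34, they are left in lower case. Where a gene has several annotated starts, the one with the longest run is given. The first 6 genes were higher in knockout cells in at least one fit, and the next 4 were lower.
RPL22 (chr1:6199576-6199605, minus strand): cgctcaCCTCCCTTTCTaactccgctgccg
RPL35A (chr3:197950180-197950209, plus strand): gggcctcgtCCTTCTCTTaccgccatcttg
RPSA (chr3:39406710-39406739, plus strand): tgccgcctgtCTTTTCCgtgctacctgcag
RPL34 (chr4:108620566-108620595, plus strand): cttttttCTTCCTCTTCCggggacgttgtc
RPL29 (chr3:51995876-51995905, minus strand): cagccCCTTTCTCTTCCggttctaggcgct
RPS21 (chr20:62387093-62387122, plus strand): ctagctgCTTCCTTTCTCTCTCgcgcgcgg
RPL21 (chr13:27251548-27251577, plus strand): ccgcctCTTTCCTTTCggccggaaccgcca
RPL26 (chr17:8383174-8383203, minus strand): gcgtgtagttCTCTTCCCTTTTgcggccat
RPL19 (chr17:39200313-39200342, plus strand): agctctttCCTTTCgctgctgcggccgcag
RPS12 (chr6:132814559-132814588, plus strand): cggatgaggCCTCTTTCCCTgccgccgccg

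Genes that were higher and genes that were lower in the knockout thus both carried the run. Of the 85 genes, 68 matched an entry of the RefSeq promoter table. A C with at least 4 pyrimidines after it lay within 5 bases of the start in 53 of 62 canonical genes (85.5%), against 25.2% of all 27305 genes with an entry. Exactly at the annotated start it was found in 46 of 62 (74.2%), against 5.14% of all genes. The ETS-type word CCGGAAG, searched on both strands from 250 bases before to 50 bases after the start, was in 22 of 62 promoters (35.5%) against 12.2% of all. The YY1-type word AAGATGGC was in 6 of 62 (9.68%) against 3.52%. TATAAA was in 5 of 62 (8.06%) against 14.0%. The 9 canonical genes with no such run near any annotated start were RPL6, RPL9, RPL15, RPL17, RPL27, RPS4X, RPS15, RPS26 and RPS29. Their median log2 fold change (knockout minus parental) was 0.13, against 0.20 in the 53 genes with it, and both sets spanned both signs.

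Among the paralogs the run was rarer, at 2 of 6 with an entry (RPL22L1 and RPL36AL). RPS27 and RPS27L are printed together because the canonical gene has the run and the paralog does not; the other windows are of the paralogs that the results below turn on.
RPL22L1 (chr3:170870176-170870205, minus strand): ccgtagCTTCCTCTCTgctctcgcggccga
RPL7L1 (chr6:42879606-42879635, plus strand): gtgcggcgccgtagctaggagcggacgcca
RPL26L1 (chr5:172958719-172958748, plus strand): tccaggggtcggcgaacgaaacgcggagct
RPS27 (chr1:153990752-153990781, plus strand): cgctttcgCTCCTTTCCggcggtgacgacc
RPS27L (chr15:63157458-63157487, minus strand): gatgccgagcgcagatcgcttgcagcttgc

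Library totals were 52.6 to 65.2 M counts (M, 1e6) in replicates 1 to 3 of both genotypes and 320.6 to 385.4 M in replicates 4 and 5, and levels differed between these 2 sets of libraries in both genotypes. Each comparison is therefore given over all 10 libraries, with the replicate number as a block, and within each set. CCAR1 itself was at 148 ± 23.5 CPM (counts in each 1e6 of library size after scaling, mean ± SD, n = 5) in the parental group and at 106 ± 18.5 CPM in the knockout group, a log2 fold change of -0.48 (edgeR adjusted p = 0.0201). The knockout thus kept 71.4% of the parental transcript level, with ranges that overlapped over all 10 libraries and were apart within each set. CCAR1 lies on chromosome 10, where the median log2 fold change of the other protein-coding genes was -0.18. With that median removed it was at -0.31 and lost its call (edgeR adjusted p = 0.123, and 1.70e-06 with the set of libraries as a term as well). The cultured-epithelium genes KRT8 and KRT18 and the pigment-epithelium factors MITF and OTX2 were present in every library. Of the other pigment-epithelium markers, RPE65 and TYR were at 0 to 0.189 CPM. BEST1 was at 1.196 to 2.569 CPM in replicates 1 to 3 and at 1.446 to 2.281 CPM in replicates 4 and 5. TTR, PMEL, TYRP1 and RLBP1 were at 0.00529 to 1.17 CPM. The other epithelial markers were low. EPCAM, CDH1 and CDH3 were at 0.0132 to 0.954 CPM, and KRT19 at 3.77 to 10.7 CPM in replicates 1 to 3 and 0.0321 to 0.0846 CPM in replicates 4 and 5. In replicates 1 to 3 the mesenchymal marker list, with VIM and FN1, summed to 10631 to 11250 CPM in parental and 14363 to 14737 CPM in knockout cells. In replicates 4 and 5 it summed to 10630 to 10768 CPM and 14631 to 14710 CPM. The skeletal muscle marker list summed to 302 to 684 CPM in replicates 1 to 3 and to 17.7 to 32.9 CPM in replicates 4 and 5. Liver markers summed to 43.1 to 119 CPM and 1.92 to 3.19 CPM, and erythroid markers to 22.1 to 182 CPM and 0.239 to 0.268 CPM, in the same order. In replicates 4 and 5 the muscle sums were apart by genotype (17.7 to 18.2 CPM in parental and 32.5 to 32.9 CPM in knockout cells). The liver sums were apart there as well (1.92 to 2.46 CPM and 3.18 to 3.19 CPM), while the erythroid sums overlapped. Their part in the results was not tested.

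Ribosomal protein genes took 5.09% to 8.31% of all counts. In parental replicates 1 to 5 the shares were 6.27%, 6.50%, 6.32%, 5.09% and 5.38%. In knockout replicates 1 to 5 they were 6.78%, 7.80%, 8.31%, 5.70% and 5.71%. Each knockout library thus held a larger share than every parental library of its own set. The ratio of small to large subunit counts stayed between 0.541 and 0.564 in all 10 libraries. Canonical genes ranged from 143 CPM (RPS29) to 2783 CPM (RPL13A) in parental cells, with a median of 685 CPM. Per kilobase of an annotated transcript, RPL8 was highest, with 2514 CPM in the parental group and 3001 CPM in the knockout group. RPL37 was lowest at 60.6 and 78.0 CPM per kilobase, with a transcript model of 7686 bases, so its place in the order rests on that model.

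Over all 10 libraries, few ribosomal protein genes passed the test in either direction. Of 77 canonical genes, 5 rose in the knockout, 2 fell and 70 did not pass an edgeR adjusted p of 0.05. Of all 18979 genes tested, 19.7% were called higher and 16.9% lower (36.6% in all) and the share of canonical genes called lay below that background. Their log2 fold changes nevertheless leaned upward: 66 of 77 were positive, with a median of 0.20, against 0.02 over all genes tested. The 5 that rose were RPL34, RPL22, RPL35A, RPSA and RPL5. The 2 that fell were RPL23 and RPL21. With the 2 paralogs RPL7L1 and RPL26L1, which also fell, 5 genes rose and 4 fell, a split that was 2 and 6 with DESeq2 size factors and 14 and 4 with library size alone. RPL35A, RPSA and RPL5 lost their calls with DESeq2 size factors (edgeR adjusted p = 0.0531, 0.0891 and 0.0798), and these 3, RPL23 and RPL21 lost them with the median of the chromosome removed (0.0650, 0.106, 0.143, 0.682 and 0.110, with RPL21 then at a log2 fold change of 0.16). DESeq2 called 7 canonical genes higher and 4 lower, against 20.5% and 20.8% of all genes (41.3%), and limma-voom 4 and 3, against 20.6% and 17.6% (38.1%).

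Taking the 2 sets of libraries into account brought many more of the genes past the threshold. With the replicate number as a block, 45 canonical genes rose and 6 fell, with a median log2 fold change of 0.18, while 31.1% of all genes were called higher and 30.1% lower (61.2% in all). By subunit, 18 of 31 small and 27 of 46 large subunit genes rose, and 1 and 5 fell. With the set of libraries as a term in place of the replicate number, 46 rose and 6 fell, against 32.7% and 31.3% of all genes (64.0%). Dropping each library in turn from that fit gave 30 to 55 members called higher and 8 to 11 called lower, paralogs included, the extremes for the higher calls being without knockout replicate 2 or parental replicate 3 (30) and without knockout replicate 1 (55).

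**Figure D1:**
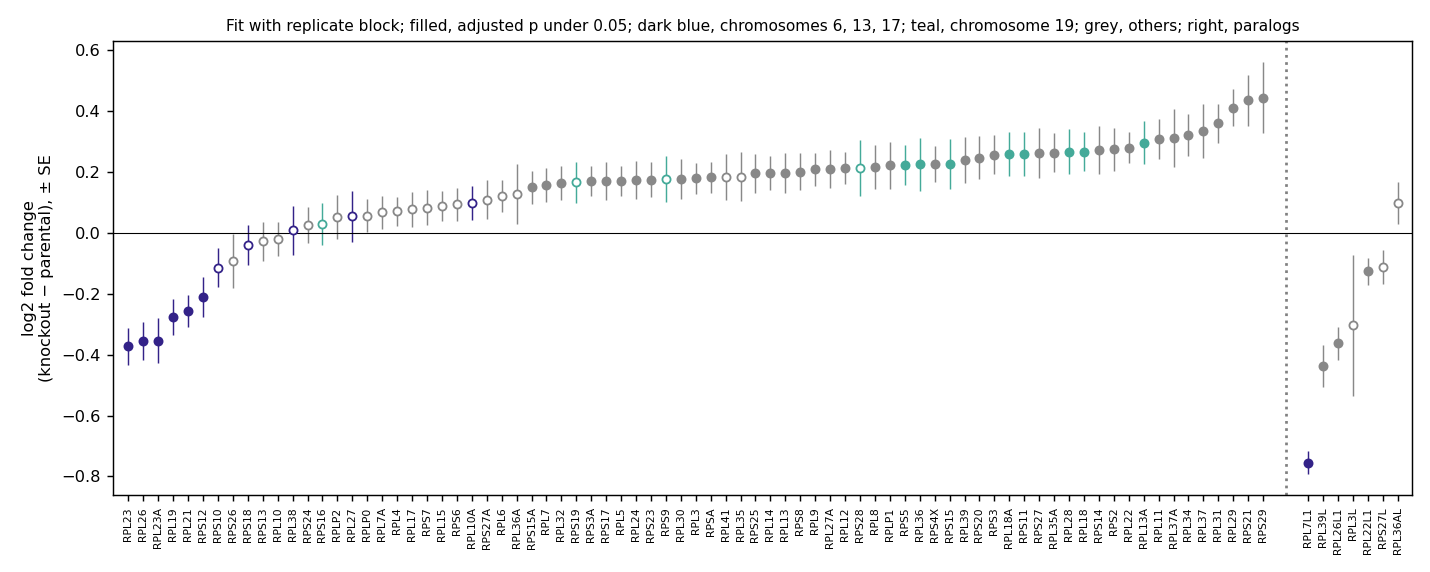
Log2 fold change (knockout minus parental, y axis) of each canonical gene in rank order and, to the right of the dotted line, of the 7 paralogs tested, from the edgeR fit with the replicate number as a block; bars are standard errors. Filled points passed an adjusted p of 0.05: the 45 higher canonical genes all lie off chromosomes 6, 13 and 17 (dark blue), where all 6 lower canonical genes lie, and the paralogs lie mostly below 0.

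Of the small subunit, RPSA, a protein of the mRNA exit side that is also known as the laminin receptor precursor, was the only gene called over all 10 libraries. It was at 855, 876, 854, 835 and 874 CPM in parental replicates 1 to 5 and at 937, 1062, 1084, 897 and 907 CPM in knockout replicates 1 to 5. The ranges did not overlap. Its log2 fold change was 0.19 (standard error 0.066, edgeR adjusted p = 0.0486), split into 0.25 within replicates 1 to 3 and 0.06 within replicates 4 and 5, where it did not pass (0.0857). Dropping any one library other than knockout replicates 4 or 5 cost RPSA its call, with edgeR adjusted p up to 0.139.

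The small subunit genes with the highest fold changes did not pass over all 10 libraries, and their levels in replicates 1 to 3 and in replicates 4 and 5 lay far apart in both genotypes. RPS21 was at 340, 348, 353, 180 and 200 CPM in parental and at 413, 516, 625, 226 and 226 CPM in knockout cells. Every knockout library lay above the parental libraries of its set, although the pooled ranges overlapped. Its log2 fold change of 0.50 had an edgeR adjusted p of 0.273, and of 0.00154 with the replicate block. RPS29 was at 157, 180, 161, 104 and 114 CPM and at 182, 250, 328, 130 and 131 CPM. Its groups were apart within each set, with a log2 fold change of 0.45 and an edgeR adjusted p of 0.0117 with the block (0.177 without). RPS2 and RPS3, at the mRNA entry side of the subunit, rose by 0.27 and 0.26 on the log2 scale with the block (edgeR adjusted p = 0.00687 and 0.00591), but about 23.2% of the reads given to RPS2 and its pseudogenes together were given to pseudogene rows, so its level is uncertain. With the pseudogene rows of every gene added to it before the fit, 4 canonical genes rose and 3 fell over all libraries, against 19.8% and 16.9% of all genes (36.7%).

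RPS6 and RPS19, known for signalling and clinical roles, passed neither over all 10 libraries nor with the block. RPS6, the substrate of the S6 kinases, was at 1134 ± 34.3 and 1214 ± 107 CPM, and its log2 fold change of 0.10 did not pass without or with the block (edgeR adjusted p = 0.291 and 0.163). RPS19, the gene most often altered in Diamond-Blackfan anemia, was at 709 ± 136 and 812 ± 237 CPM, a log2 fold change of 0.20 that did not pass either (0.525 and 0.0590). It passed with the set of libraries as a term (edgeR adjusted p = 0.0359) and within replicates 1 to 3 (log2 fold change 0.26, 0.0183), and with the median of chromosome 19 removed it was at 0.02 (0.951). RPS12, encoded on chromosome 6, was the only small subunit gene to fall with the block, by 0.21 on the log2 scale (edgeR adjusted p = 0.0185, 0.390 without the block). It was at 655, 703, 660, 508 and 547 CPM in parental and at 515, 616, 709, 429 and 424 CPM in knockout cells, so the ranges overlapped in replicates 1 to 3 and were apart in replicates 4 and 5.

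Of the large subunit, RPL22, an RNA-binding protein that the ribosome can do without, showed the clearest rise. It was at 417, 456, 433, 430 and 450 CPM in parental and at 493, 568, 604, 499 and 500.0 CPM in knockout cells, and the ranges did not overlap. Its log2 fold change was 0.28 (standard error 0.070, edgeR adjusted p = 0.00880), and every fit that dropped 1 library kept the call (adjusted p 0.00950 to 0.0289). Its rise was 0.34 in replicates 1 to 3 and 0.16 in replicates 4 and 5.

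RPL35A, a large subunit protein also linked to Diamond-Blackfan anemia, was at 340.0, 365, 354, 352 and 378 CPM in parental and at 380, 491, 504, 392 and 397 CPM in knockout cells. The groups were apart by a narrow margin, between parental replicate 5 and knockout replicate 1. Its log2 fold change was 0.27 (standard error 0.090, edgeR adjusted p = 0.0359). RPL34 was at 210.0, 251.6, 221, 213 and 240 CPM and at 229, 308, 350.5, 269 and 273 CPM, with overlapping ranges and a log2 fold change of 0.33 (edgeR adjusted p = 0.0355). It was at 0.37 within replicates 1 to 3, where it did not pass (0.132), and at 0.24 within replicates 4 and 5 (0.0487). Each of these 2 calls was lost in 6 of the 10 fits that dropped a library, with adjusted p up to 0.0985 for RPL35A and 0.0889 for RPL34. For RPL35A these were parental replicates 1 to 4 and knockout replicates 2 and 3, and for RPL34 parental replicates 1, 3, 4 and 5 and knockout replicates 2 and 3.

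The 2 proteins of the 5S particle both leaned upward. RPL5 was at 915, 939, 956, 990 and 1023 CPM in parental and at 1016, 1174, 1137, 1049 and 1058 CPM in knockout cells. The groups were apart within each set of libraries. The log2 fold change was 0.17 (standard error 0.059, edgeR adjusted p = 0.0414), with 0.24 within replicates 1 to 3 (0.00775) and 0.05 within replicates 4 and 5, where it did not pass (0.151). The call was lost in 8 of the 10 fits that dropped a library, the exceptions being parental replicate 5 and knockout replicate 1 (adjusted p up to 0.115). RPL11 was at 772, 821, 779, 626 and 681 CPM and at 899, 1070.0, 1186, 728 and 741 CPM. It was higher in every knockout library than in the parental libraries of its set, with a log2 fold change of 0.31 and an edgeR adjusted p of 0.00247 with the block (0.103 without). RPL29, a small basic protein of the large subunit, had the smallest blocked p of the canonical genes that rose, at 719 ± 99.5 and 972 ± 232 CPM, a blocked log2 fold change of 0.41 (edgeR adjusted p = 2.48e-04, and 0.0629 without the block).

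The stalk proteins, which recruit the translation factors that hydrolyse GTP, did not share one result. RPLP0, which anchors the stalk, was at 2155 ± 90.3 and 2249 ± 232 CPM and its log2 fold change of 0.06 did not pass (edgeR adjusted p = 0.582, 0.397 with the block). RPLP1 was at 1038 ± 152 and 1224 ± 267 CPM and rose with the block only, by 0.22 on the log2 scale (edgeR adjusted p = 0.0304). RPLP2 was at 571 ± 103 and 600 ± 153 CPM, with a blocked log2 fold change of 0.05 (edgeR adjusted p = 0.567). RPL13A and RPL41, known for very abundant transcripts, had blocked log2 fold changes of 0.30 (edgeR adjusted p = 0.00426) and 0.18 (0.0597). RPL10, a late-joining protein near the catalytic centre, had a log2 fold change of -0.01, and 59.8% of its 31-base words also occur in transcripts of other genes, mainly DNASE1L1.

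**Figure D2:**
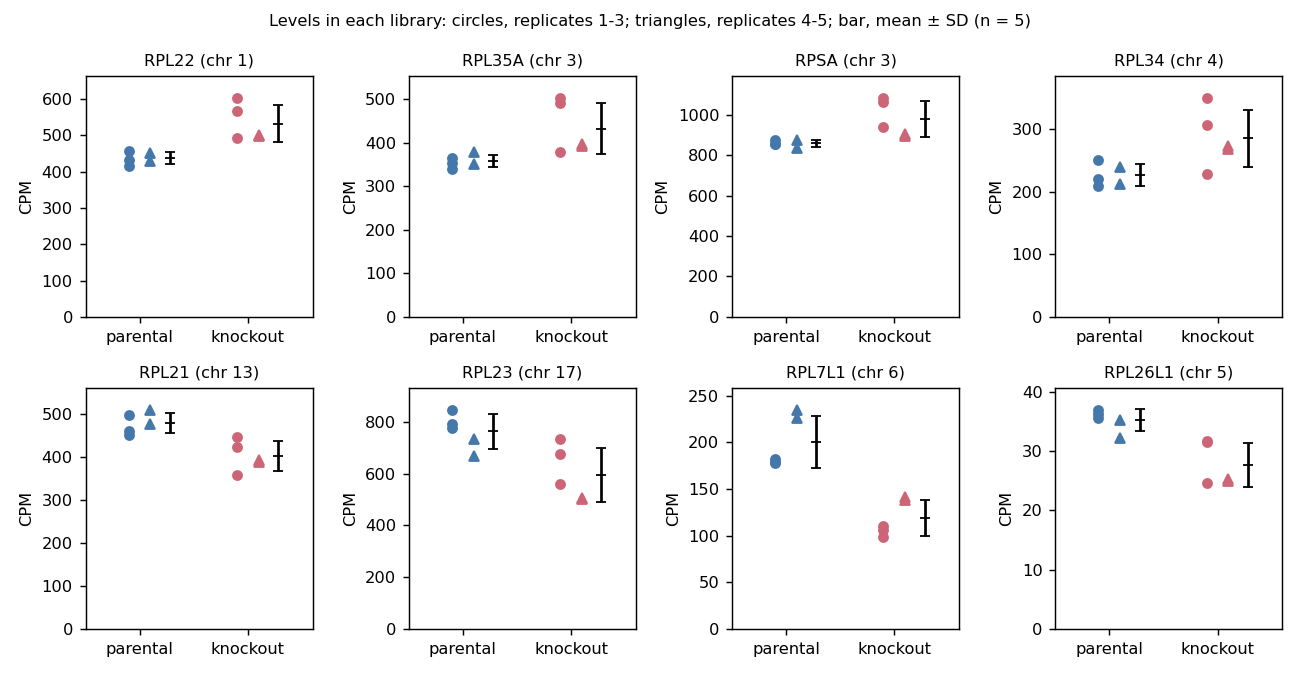
CPM (y axis, from 0) of 8 genes in each library of the 2 genotypes; circles are replicates 1 to 3, triangles replicates 4 and 5, and the bar to the right of each group is the mean ± SD over 5 libraries. Knockout libraries lie above all parental ones for RPL22, RPL35A and RPSA and below all of them for RPL21, RPL7L1 and RPL26L1, while the ranges meet for RPL34 and RPL23.

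The canonical genes that fell over all 10 libraries or with the block lie on 3 chromosomes. RPL23, a large subunit protein that can also bind MDM2, is encoded on chromosome 17 and was at 776, 847, 793, 669 and 734 CPM in parental and at 559, 675, 733, 501 and 507 CPM in knockout cells. Within each set the ranges were apart. The log2 fold change was -0.36 (standard error 0.12, edgeR adjusted p = 0.0351), and the call was lost in 7 of the 10 fits that dropped a library, those without parental replicates 1, 2, 3 or 5 or knockout replicates 1, 4 or 5 (adjusted p up to 0.0784). RPL21, on chromosome 13, was at 452, 496, 459, 477 and 510 CPM in parental and at 358, 424, 447, 388 and 392 CPM in knockout cells. Its ranges did not overlap. It fell by 0.25 on the log2 scale (standard error 0.070, edgeR adjusted p = 0.0161), and every fit that dropped 1 library kept the call.

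With the block, RPL26, RPL23A and RPL19, all on chromosome 17, fell as well, by 0.35, 0.35 and 0.28 on the log2 scale (edgeR adjusted p = 6.67e-04, 0.00209 and 0.00259; 0.0842, 0.0503 and 0.108 without it). RPL26 joins the large subunit near the exit tunnel, as RPL23A and RPL19 do. Pseudogene rows took 35.7% of the reads given to RPL23A and its pseudogenes together, mostly RPL23AP42, so its level is uncertain. Chromosome 17 carries 2 more canonical genes, RPL27 and RPL38, whose blocked log2 fold changes were 0.05 and 0.01 and did not pass (edgeR adjusted p = 0.607 and 0.936).

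The other protein-coding genes of these chromosomes moved the same way. With the ribosomal protein genes left out, the median log2 fold change was -0.32 on chromosome 6, -0.41 on chromosome 13 and -0.28 on chromosome 17. On chromosome 7 it was -0.30, but no canonical gene lies there. On chromosome 19, which carries 12 canonical genes, it was 0.17. On chromosomes 6, 13 and 17, 0 of 11 canonical genes rose and 6 fell (54.5%) with the block, with a median of -0.21. Off them, 45 of 66 rose (68.2%) and 0 fell in the same edgeR fit, with a median of 0.20. Over all chromosomes, 31.1% of all genes were called higher and 30.1% lower in that fit. These 3 chromosomes were named above as those that carry the canonical genes that fell, so the 0 off them follows from the split.

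Removing the chromosome's median from the knockout libraries changed the calls on these chromosomes. Over all 10 libraries with that median removed, 5 canonical genes rose and 0 fell (0 also at an unadjusted p of 0.05, in edgeR), against 20.0% and 13.4% of all genes (33.5%). With the set of libraries as a term as well, 43 rose and again 0 fell, against 33.6% and 28.2% of all genes (61.8%). In that fit RPL21 was higher in the knockout, with a log2 fold change of 0.16 (edgeR adjusted p = 0.0268), and RPL23 was at -0.09 (0.279). The 4 genes of chromosome 6, RPL10A, RPS10, RPS12 and RPS18, were all positive, and 3 of them passed. The 12 genes of chromosome 19 went the other way: 8 rose with the block, while after the median was removed 0 passed in edgeR and their median was 0.06. The part of the chromosome-wide differences in the results of single genes was not tested.

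**Figure D3:**
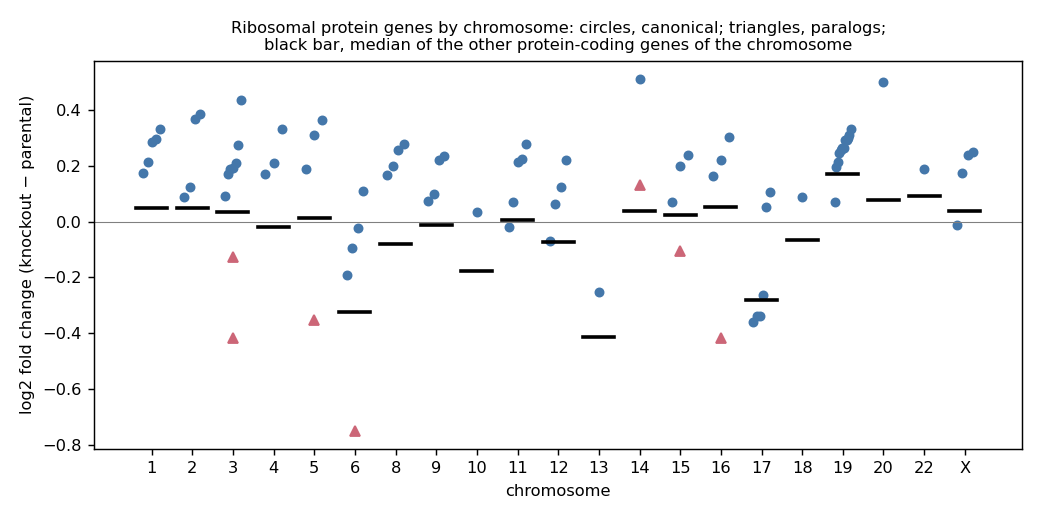
Log2 fold change (knockout minus parental, y axis) over all 10 libraries of each canonical gene (circles) and paralog (triangles), by chromosome; black bars are the medians of the other protein-coding genes of the chromosome. Most circles lie above the bar of their chromosome, and among chromosomes that carry canonical genes the bars are lowest on 6, 13 and 17, at -0.32, -0.41 and -0.28.

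The median fold change of the canonical genes was higher in replicates 1 to 3 than in replicates 4 and 5. Within replicates 1 to 3, 38 canonical genes rose and 4 fell, with a median log2 fold change of 0.26 and 69 of 77 positive, while 26.5% of all genes were called higher and 26.2% lower (52.7%). Within replicates 4 and 5, 20 rose and 13 fell, with a median of 0.05 and 49 positive, against 28.9% and 28.1% of 26859 genes (57.0%). Both sets called 15 canonical genes higher and 4 lower, and 0 in opposite directions. How many of all genes were called in both sets was not counted, so these numbers have no background beside them. Of the 13 that fell in replicates 4 and 5, 10 lie on chromosomes 6, 13 and 17, and the others are RPL10, RPS13 and RPS16. The summed level of the canonical genes was 1.19 times the parental one in replicates 1 to 3 and 1.02 times in replicates 4 and 5.

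Tested gene by gene, this difference between the sets did not pass. The interaction of genotype and set was negative in all 77 canonical genes, with a median of -0.21, against -0.03 over all genes. After adjustment edgeR called 0 of them, with 23 at an unadjusted p of 0.05 and a smallest adjusted p of 0.110. Of all genes 0.601% were called. No other tool was run on the interaction. Across the 77 genes the effects in the 2 sets were correlated, with a Pearson r of 0.92 and a Spearman rho of 0.80, and 0.80 and 0.70 over the 66 genes off chromosomes 6, 13 and 17. This is a description across genes, which share libraries and normalization.

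**Figure D4:**
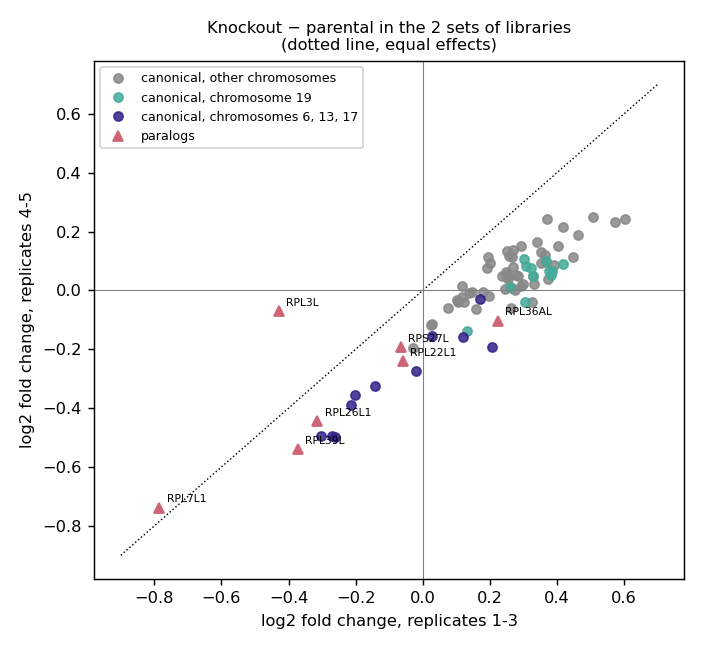
Log2 fold change of each gene in replicates 4 and 5 (y axis) against that in replicates 1 to 3 (x axis), with circles for canonical genes, coloured by chromosome, and triangles for the 7 paralogs tested. All 77 circles lie below the dotted line of equal effects, which is the negative interaction given in the text.

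The spread inside the knockout group lay mainly in replicates 2 and 3. For each library the median log2 difference of the canonical genes from the parental mean of its set was taken. In knockout replicates 1 to 5 it was 0.03, 0.32, 0.40, 0.06 and 0.06, and in the parental libraries it stayed between -0.05 and 0.05. Knockout replicate 1 had the lowest level of the first 3 knockout libraries in 77 of 77 genes, and replicate 3 the highest in 73. Without knockout replicate 3 the median over all libraries dropped from 0.20 to 0.11, and 1 member was called higher and 8 lower. With it but without knockout replicate 2 the median was 0.13.

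Other short genes moved with the ribosomal protein genes in the same libraries. Over the 1025 other protein-coding genes with a transcript under 1000 bases, the median difference in knockout replicates 1 to 5 was 0.07, 0.20, 0.26, 0.03 and 0.02. Over the 154 of these with a mean level of at least 100 CPM it was 0.02, 0.20, 0.24, -0.02 and -0.02. Over the 6428 genes with a transcript over 3000 bases it was -0.05, -0.11, -0.16, -0.07 and -0.06. The 78 mitochondrial ribosomal protein genes gave -0.02, 0.13, 0.16, -0.09 and -0.08. Among the 77 canonical genes the Pearson r of the effect with log2 transcript length was 0.03 in replicates 1 to 3 and 0.11 in replicates 4 and 5. Both are descriptions, and the lengths rest on transcript models such as that of RPL37. They were taken among the canonical genes only, not between short and long genes. The part of transcript length in the rise of the ribosomal protein genes was not tested.

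**Figure D5:**
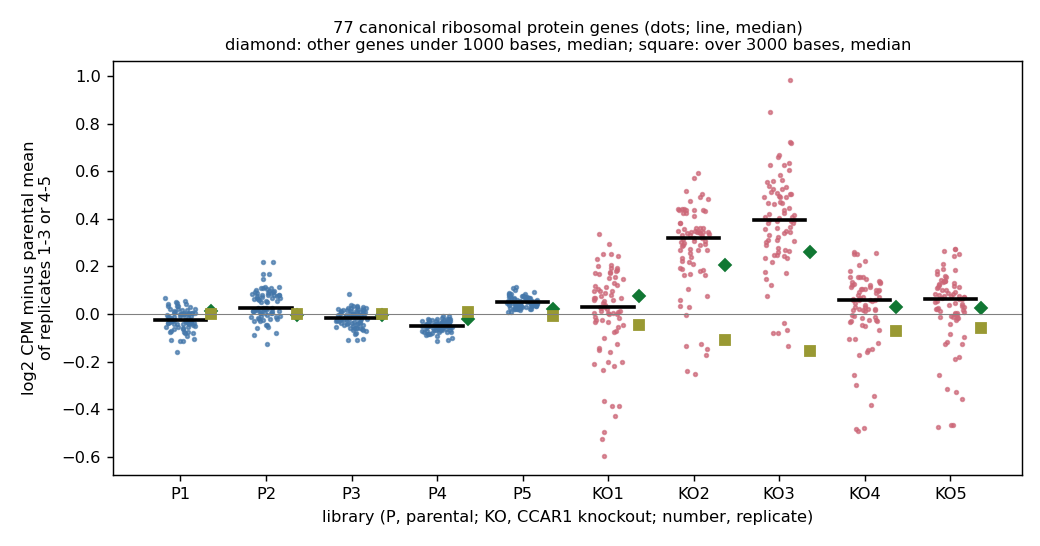
Log2 CPM of the 77 canonical genes in each library, as the difference from the parental mean of replicates 1 to 3 or of 4 and 5 (y axis); each dot is a gene and the line is the median. Diamonds and squares are the medians of other protein-coding genes with transcripts under 1000 and over 3000 bases: diamonds follow the lines upward in knockout replicates 2 and 3 (0.20 and 0.26), where the lines reach 0.32 and 0.40, and squares go below 0.

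The sets of libraries also differed within the parental cells alone. In 59 of 77 canonical genes all of parental replicates 1 to 3 lay above both of replicates 4 and 5, and in 3 they lay below. The same count was not made over all genes, so whether the canonical genes differ from others in this is not known. The summed level of the canonical genes was 63834, 65225, 63680, 51300 and 54650 CPM in the parental libraries and 66306, 78417, 83679, 53609 and 53959 CPM in the knockout libraries. After this scaling the genotypes overlapped in the sum in replicates 4 and 5, unlike the unscaled shares, and in replicates 1 to 3 they did not. Groups that did not overlap gene by gene were found in 36 canonical genes higher and 3 lower in replicates 1 to 3, against 30.6% and 29.0% of all genes. In replicates 4 and 5 they were found in 40 and 15, against 42.8% and 42.0%. Over all 10 libraries they were found in 3 and 1, against 16.0% and 14.6%.

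The paralogs called over all 10 libraries or with the block were all lower in the knockout. RPL7L1, a relative of RPL7 encoded on chromosome 6 (42879618 to 42889925, hg38), was at 179, 183, 178, 226 and 235 CPM in parental and at 111, 106, 98.6, 138 and 142 CPM in knockout cells. Every knockout library lay below every parental one. Its log2 fold change was -0.75 (standard error 0.13, edgeR adjusted p = 0.00114), and -0.43 with the set as a term and the chromosome median removed (1.36e-07). Over all 10 libraries and with the block this was the largest change in either direction among the 84 members tested. With the set as a term and the median removed, RPL39L at -0.47 lay further from 0. RPL7L1 was at -0.78 in replicates 1 to 3 and at -0.74 in replicates 4 and 5. For RPL7L1 all 10 fits that dropped a library kept the call.

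RPL26L1, the paralog of RPL26 on chromosome 5, was at 35.5, 37.0, 36.2, 32.3 and 35.3 CPM in parental and at 24.6, 31.5, 31.7, 25.2 and 25.0 CPM in knockout cells. The ranges did not overlap. It fell by 0.35 on the log2 scale (standard error 0.092, edgeR adjusted p = 0.0121), and all 10 fits that dropped a library kept the call. Of its 31-base words 47.4% also occur in other genes, mostly the pseudogene RPL26P30, and 0 in RPL26, so reads could be exchanged with the pseudogene. The median of the other genes of chromosome 5 was 0.01.

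RPL39L, a paralog of RPL39 best known from male germ cells, was at 29.6, 27.7, 28.6, 22.0 and 23.4 CPM in parental and at 18.4, 23.8, 24.6, 15.5 and 16.1 CPM in knockout cells. Within each set the knockout libraries were all lower. Its log2 fold change of -0.42 did not pass over all 10 libraries (edgeR adjusted p = 0.0533) and passed with the block (3.42e-04). RPL39 itself was at 318 ± 29.6 and 378 ± 61.7 CPM and rose with the block by 0.24 (0.0196). The 2 genes shared 51 of their 31-base words, 4.82% of those of RPL39L. Testis markers were at or near 0 in all 10 libraries, with a summed level of 0.0530 to 0.155 CPM.

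The other tissue-restricted paralogs were low or near the limit of detection. RPL3L, the striated-muscle paralog of RPL3, was at 1.86, 2.33, 1.59, 0.167 and 0.129 CPM in parental and at 1.79, 0.885, 1.63, 0.123 and 0.164 CPM in knockout cells. It was higher in every library of replicates 1 to 3 than in replicates 4 and 5, the same split as the muscle markers, and genotypes overlapped (edgeR adjusted p = 0.796). These levels rest on 41 to 132 counts in a library. RPL10L, known from the testis, had 1 count in parental replicate 5 and 0 in the other 9 libraries, where 3 counts correspond to 0.00793 to 0.0577 CPM. It was left out of the test by the filter on low counts.

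The remaining broad paralogs did not pass over all 10 libraries. RPL22L1 was at 56.1 ± 6.96 and 51.4 ± 5.48 CPM, with a log2 fold change of -0.13 (edgeR adjusted p = 0.410, 0.0348 with the block and 0.241 with the set of libraries as a term). RPL22, which is known to limit RPL22L1, rose. RPS27L, known as a p53 target, was at 75.3 ± 3.60 and 70.1 ± 8.47 CPM (log2 fold change -0.10, edgeR adjusted p = 0.397, 0.112 with the block). RPL36AL was at 165 ± 23.0 and 181 ± 47.8 CPM (0.13, 0.631, and 0.235 with the block). It was the one member called in opposite directions in the 2 sets, at 0.22 in replicates 1 to 3 (0.0210) and -0.10 in replicates 4 and 5 (0.0117); the interaction had an edgeR adjusted p of 0.159.

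Transcripts that share the TOP motif or the ribosome did not all follow. FAU, which encodes the ribosomal protein RPS30 as a ubiquitin-like fusion and so escapes the symbol rule, had a log2 fold change of 0.23 that did not pass without the block (edgeR adjusted p = 0.420) and passed with it (0.0410). Of 21 TOP genes outside the symbol rule, a list that holds FAU and shares other genes with the translation factors, 4 rose and 2 fell, where 19.7% and 16.9% of all genes did, so the share that rose was near the background. With the block 12 rose and 4 fell (57.14% and 19.05%), where 31.1% and 30.1% of all genes and 58.44% and 7.79% of the canonical genes did. In that fit the share that rose was above that of all genes and close to that of the canonical genes. The elongation factor subunit EEF1B2 rose from 300 ± 7.55 to 378 ± 39.6 CPM (edgeR adjusted p = 0.00469). EEF1A1, the elongation factor with the most abundant transcript of the list and a gene of chromosome 6, fell by 0.26 on the log2 scale (0.00348) and was at 0.06 with the chromosome median removed.

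Of 39 translation factors, 3 rose and 10 fell (7.69% and 25.6%, against 19.7% and 16.9% of all genes), and 12 and 15 with the block (30.8% and 38.5%, against 31.1% and 30.1%). Their median log2 fold change was -0.04. With the chromosome median removed 3 rose and 6 fell (7.69% and 15.4%, against 20.0% and 13.4% of all genes), and 20 of 39 were positive. The helicase EIF4A2 fell from 286 ± 27.3 to 164 ± 16.4 CPM, a log2 fold change of -0.80 (edgeR adjusted p = 6.03e-05), and EIF4A1 from 1418 ± 65.0 to 962 ± 33.6 CPM (-0.56, 1.71e-05). EIF4A1 lies on chromosome 17 and was at -0.28 with the chromosome median removed (edgeR adjusted p = 0.00210). Of the mitochondrial ribosomal protein genes, which build the separate ribosome of mitochondria, 8 of 78 rose and 9 fell (10.3% and 11.5%), and 18 and 24 with the block (23.1% and 30.8%), so all but the last share lay below that of all genes and the last was close to it. With the chromosome median removed 10 rose and 2 fell (12.8% and 2.56%), both below the 20.0% and 13.4% of all genes in that fit.

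Of the genes that assemble the small subunit, 1 of 31 rose and 8 fell (3.23% and 25.8%, against 19.7% and 16.9% of all genes), and 6 and 18 with the block (19.4% and 58.1%, against 31.1% and 30.1%), with a median of -0.12. The kinase RIOK1 fell from 28.7 ± 1.59 to 18.2 ± 0.677 CPM (edgeR adjusted p = 1.46e-05) and the GTPase-like factor TSR1 from 171 ± 13.7 to 117 ± 8.10 CPM (1.89e-04), both encoded on the chromosomes with low medians (6 and 17) and both still called with the median removed (log2 fold changes of -0.34 and -0.27). The endonuclease NOB1, which makes the last cut of 18S rRNA, rose by 0.26 on the log2 scale (edgeR adjusted p = 0.0453) and lost its call with the median removed (0.107) and in limma-voom. For assembly of the large subunit, 1 of 41 rose and 3 fell (2.44% and 7.32%, both below the shares of all genes), and 6 and 18 with the block (14.6% and 43.9%), with a median of -0.04. SBDS of chromosome 7, which frees the finished subunit of an anti-association factor, fell from 112 ± 9.20 to 72.5 ± 5.42 CPM (log2 fold change -0.63, edgeR adjusted p = 1.04e-04), and was at -0.33 with the chromosome median removed (0.00648).

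The remaining lists of the pathway were also called in both directions, and are read against 19.7% higher and 16.9% lower among all genes, or 31.1% and 30.1% with the block. Of 12 nucleolar RNA-modification genes, 1 rose and 3 fell, or 8.33% and 25.0% (4 and 3 with the block, 33.3% and 25.0%). Of 21 genes of RNA polymerases I and III and 5S transcription, 1 rose and 3 fell, or 4.76% and 14.3% (3 and 7 with the block, 14.3% and 33.3%). With the chromosome median removed 3 of these 21 rose (14.3%) and 0 fell in edgeR, against 20.0% and 13.4% of all genes. In that fit 5 of the 21 were at an unadjusted p of 0.05 in either direction. Of 24 tested regulators of ribosomal protein synthesis, 1 rose and 7 fell, or 4.17% and 29.2% (5 and 13 with the block, 20.8% and 54.2%), with a median of -0.17. RHEB, the GTPase that activates mTORC1, fell from 167 ± 4.11 to 108 ± 8.05 CPM (log2 fold change -0.64, edgeR adjusted p = 2.18e-05), and was at -0.34 with the median of chromosome 7 removed. AKT1S1, an inhibitory subunit of mTORC1, rose from 126 ± 21.3 to 181 ± 44.6 CPM (edgeR adjusted p = 0.0448), a call lost with the median of chromosome 19 removed (0.171) and in limma-voom. LARP1B, a relative of the TOP-binding protein LARP1, fell from 21.0 ± 1.67 to 13.4 ± 1.21 CPM (1.56e-04). Whether these changes bear on the ribosomal protein transcripts was not tested.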

How the data were processed

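Polyadenylated RNA of 5 parental and 5 CCAR1 knockout samples, grouped by their titles, was sequenced after NEBNext Ultra II library preparation on a NovaSeq, per the labels' protocols. The authors deposited 1 table of estimated counts (expected counts) per gene and library, neither scaled for depth nor for length. Per the submitters' processing notes, kallisto 0.48.0 and hg38 were used. The sources used here give neither the annotation nor how transcripts were summed. Reads that match several transcripts are divided among them by kallisto, so genes with close copies can exchange counts. Strand-specific counting is not stated.

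Counts were rounded, filtered with filterByExpr (18979 of 62700 genes kept), scaled by TMM and fitted with edgeR 4.0.16 in R 4.3.3 (quasi-likelihood, robust, genotype as the term). P-values were adjusted by Benjamini-Hochberg over all genes, with a threshold of 0.05. Levels are CPM of the scaled library size. Positions are from GENCODE on GRCh38, promoter windows from RefSeq (GRCh38.p14), and 31-base words from the GENCODE transcripts. The fits were tested on simulated data. DESeq2 1.42.0 and limma-voom (limma 3.58.1) were alternatives, with those given in the closing section.

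Samples that share a number moved together around the mean of their group (correlations across genes 0.640, 0.584, 0.606, 0.899 and 0.894), which pairs them by the rule used. Within a set of libraries (replicates 1 to 3, or 4 and 5) these correlations were -0.0604 to -0.00521, so the pairing follows the sets. The sets differ in depth, and the labels do not say what else sets them apart.

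The members and lists were chosen with earlier results of these data known. Named genes were CCAR1, all paralogs, FAU, 7 well-studied members (RPL5, RPL11, RPS6, RPS19, RPLP0, RPL13A, RPL41), the canonical genes called over all libraries, the highest and lowest per length, and up to 4 of each other list by adjusted p; 1 gene of this rule is not reported here. Other members named were chosen after their values were seen.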

Additional observations from a re-analysis of the deposited data

Results flagged for a closer look

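Of 242 groups of 5 libraries examined, 3 held a library further from its neighbours than Dixon's test allows at the usual level, where chance gives about 1 in 20. None was a cytosolic ribosomal protein gene. MRPS18B, a mitochondrial ribosomal protein gene, was at 67.5 CPM in parental replicate 4 and at 70.8 to 72.0 CPM in the other parental libraries. HNRNPA1, an RNA-binding protein with a TOP mRNA, was at 1559 CPM in knockout replicate 1 and at 1664 to 1692 CPM in the other knockout libraries. POLR1D, a subunit shared by RNA polymerases I and III, was at 56.7 CPM in parental replicate 5 and at 53.2 to 53.8 CPM in the other parental libraries.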

How the results depend on the processing

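The count of ribosomal protein genes called depended on how the 2 sets of libraries were treated. Of the 84 members tested, 5 were called higher and 4 lower over all libraries. The numbers higher and lower were 45 and 10 with the replicate block, 46 and 9 with the set as a term, 43 and 3 with the set as a term and the chromosome median removed, 39 and 7 in replicates 1 to 3, and 20 and 19 in replicates 4 and 5. Of the other settings, DESeq2 size factors gave 2 higher and library size alone 14. Without the filter on low counts edgeR called 0 higher, with 7 at an unadjusted p of 0.05. DESeq2, run only with that filter, called 7 higher and 7 lower. Dropping 1 library gave 1 to 8 higher and 3 to 8 lower, and with the set as a term 30 to 55 higher and 8 to 11 lower. Over all genes, 3741 were called higher and 3198 lower. These became 5906 and 5713 with the block, 6200 and 5949 with the set as a term, 6379 and 5352 with the chromosome median removed as well, and 7775 and 7545 in replicates 4 and 5. In replicates 1 to 3, 4931 were lower. Dropping 1 library left 3318 to 3709 higher and 2765 to 3196 lower. With the set as a term and 1 library dropped they were 5693 to 6124 and 5637 to 6136. The set as a term with the chromosome median removed or with a library dropped was chosen after seeing the data, and the cause of these changes was not tested. The median log2 fold change of the canonical genes was positive under every setting, from 0.05 in replicates 4 and 5 to 0.27 without knockout replicate 5.

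Removing the chromosome median turned the sign of 5 named genes, with or without the set as a term: RPL21 to 0.16 and 0.16, MRPS18B to 0.012 and 0.011, EEF1A1 to 0.063 and 0.064, POLR1D to 0.21 and 0.21, and UBTF to 0.11 and 0.11. In replicates 4 and 5, RPL36AL was at -0.10, RPS6 at -0.0066 and RPLP0 at -0.039. Counts are estimates per gene, so reads shared with pseudogenes and depth both limit low members such as RPL3L.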

Other observations

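Reads of the ribosomal protein genes can be shared with their many processed pseudogenes. The table held 1601 rows named as pseudogenes of these genes, of which 1148 had counts, and together they took 1.23% to 1.57% of the counts of the genes in each library. In 4 genes the pseudogene rows took over 5% of the reads of the gene and its pseudogenes: RPL23A (35.7%), RPL36A (27.3%, nearly all RPL36AP37), RPS2 (23.2%) and RPS28 (6.34%). Over the members, a median of 16.8% of 31-base words also occurred in transcripts of other genes, from 2.42% to 59.8%. RPS10 shared 38.4% of its words, mainly with the readthrough gene RPS10-NUDT3. With the pseudogene rows added to their parent genes before the fit, 4 members were called higher and 5 lower, in place of 5 and 4.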
